A study of Homo sapiens with 9 samples.

Results

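The glutathione S-transferase genes described here are 10 genes of human cells, taken by symbol from a fixed list: GSTP1, GSTM3, GSTM4, GSTA4, GSTK1, GSTO1, GSTZ1, MGST1, MGST2 and MGST3. They are 10 of 61487 gene identifiers in the count tables. All 10 passed the filter on low counts. The list names enzymes of the family and sets no threshold on measured values, but it was chosen with earlier results of these data known. Glutathione S-transferases join the tripeptide glutathione to reactive, electron-poor molecules such as lipid aldehydes, quinones and many drugs, and the conjugates are then pumped out of the cell. The soluble enzymes fall into classes named alpha, mu, pi, omega, zeta and others, the kappa enzyme sits in mitochondria and peroxisomes, and an unrelated family, which includes the microsomal enzymes, is embedded in membranes. Several of these genes, best studied in rodents, carry antioxidant response elements, the DNA sites of the transcription factor NRF2.

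RNA was sequenced from SH-SY5Y, a human neuroblastoma line with traits of immature sympathetic neurons. Cells were kept for 72 h with vehicle (0 µM citrinin), 10 µM citrinin or 20 µM citrinin, and nothing else differed between the groups in the labels. Citrinin (CTN) is a toxin of Penicillium, Aspergillus and Monascus moulds that is best known for kidney damage. Each group had 3 libraries, and the labels do not tell whether these were separate cultures. The p-values below thus speak of the spread among these libraries, which may be technical. A library held 15678443 to 19604367 reads assigned to genes, so that 3 reads equal 0.153 to 0.191 CPM (counts scaled to library depth).

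Libraries that share a replicate number were alike. The numbers held 62.2% of the variance of log2 CPM and the doses 13.6%. Each comparison is therefore given from 2 edgeR quasi-likelihood fits, the planned one without a replicate term and one with the replicate number as a block. A gene is said to have risen or fallen where the Benjamini-Hochberg adjusted p of the blocked fit, taken over all 17806 genes tested, was below 0.05. Without the block edgeR called 0 genes in each comparison. An unadjusted p below 0.05 was found there for 387 genes at 20 µM against vehicle, 115 at 10 µM against vehicle and 210 at 20 µM against 10 µM. Also without the block, DESeq2 called 11, 0 and 0 genes, and limma-voom 0 in each.

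On GRCh38 with GENCODE 29 annotation, GSTP1 (ENSG00000084207) lies on chromosome 11 from 67583595 to 67586656. The mu-class genes GSTM4 (ENSG00000168765, 109656081 to 109674836) and GSTM3 (ENSG00000134202, 109733932 to 109741038) lie on chromosome 1, on opposite strands. GSTA4 (ENSG00000170899) lies on chromosome 6 from 52977948 to 52995378, and GSTK1 (ENSG00000197448) on chromosome 7 from 143244093 to 143270854. GSTO1 (ENSG00000148834) lies on chromosome 10 from 104235356 to 104267459, and GSTZ1 (ENSG00000100577) on chromosome 14 from 77320884 to 77331597. MGST1 (ENSG00000008394) lies on chromosome 12 from 16347142 to 16609259, MGST2 (ENSG00000085871) on chromosome 4 from 139665768 to 139740745, and MGST3 (ENSG00000143198) on chromosome 1 from 165630861 to 165661796. All 10 are annotated as protein-coding, and reads were counted over their exons. Strand was not marked, so reads over exon bases shared with a gene on the other strand fit more than 1 gene and were left out. MGST2 shares 7.92% of its exon bases in this way with MAML3, and GSTM3 4.25% with an antisense gene. GSTM4 shares 6.53% of its exon bases with GSTM2, and 18.6% of the 50-base stretches of its main transcript occur in other genes, led by GSTM1 and GSTM2. GSTO1 shares 3.36% of such stretches with the pseudogene GSTO3P and GSTM3 1.45% with other genes, while the other 7 members share 0%. Reads that fit more than 1 place or gene were not counted, so the levels of GSTM4, MGST2 and GSTM3 may be incomplete.

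The promoter sequences below are shown because they hold the letters of an antioxidant response element core. RefSeq promoter windows (GRCh38.p14, 250 bases before to 50 bases after a start site) were found for 9 of the 10 members, 11 windows in all, 3 of them for MGST1. The core TGACNNNGC, searched on both strands, was in the windows of 4 members, GSTP1, GSTO1, MGST1 and GSTA4, with 1 window each. In capitals below is each match to TGACNNNGC, 5′ to 3′ on the gene's strand. The windows are chr11:67583562-67583861 (plus strand) for GSTP1, chr10:104254642-104254941 (plus) for GSTO1, chr12:16346865-16347164 (plus) for MGST1 and chr6:52995235-52995534 (minus) for GSTA4.
GSTP1: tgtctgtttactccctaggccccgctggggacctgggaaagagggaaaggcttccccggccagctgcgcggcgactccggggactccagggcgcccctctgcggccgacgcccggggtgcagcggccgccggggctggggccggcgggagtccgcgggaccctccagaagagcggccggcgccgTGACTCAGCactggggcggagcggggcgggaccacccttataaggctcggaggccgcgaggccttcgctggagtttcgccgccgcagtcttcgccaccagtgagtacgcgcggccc
GSTO1: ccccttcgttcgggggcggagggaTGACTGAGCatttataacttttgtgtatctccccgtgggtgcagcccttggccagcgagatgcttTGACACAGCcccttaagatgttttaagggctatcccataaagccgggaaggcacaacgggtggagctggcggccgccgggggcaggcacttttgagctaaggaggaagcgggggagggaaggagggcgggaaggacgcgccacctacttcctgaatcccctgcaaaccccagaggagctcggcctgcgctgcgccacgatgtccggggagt
MGST1: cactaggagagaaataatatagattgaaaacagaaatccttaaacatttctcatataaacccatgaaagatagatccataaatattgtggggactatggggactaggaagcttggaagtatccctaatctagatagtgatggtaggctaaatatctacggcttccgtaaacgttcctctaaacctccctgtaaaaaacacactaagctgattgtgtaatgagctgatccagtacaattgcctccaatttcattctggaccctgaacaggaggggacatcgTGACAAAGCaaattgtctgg
GSTA4: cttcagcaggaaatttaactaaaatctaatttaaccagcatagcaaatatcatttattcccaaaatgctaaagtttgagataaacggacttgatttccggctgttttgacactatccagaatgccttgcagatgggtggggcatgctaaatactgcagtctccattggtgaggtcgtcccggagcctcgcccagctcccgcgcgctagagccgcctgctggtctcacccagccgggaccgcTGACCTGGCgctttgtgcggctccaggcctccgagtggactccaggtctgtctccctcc
GSTP1 has its match 66 bases before the start site, and there it overlaps an AP-1 element, TGANTCA. GSTO1 has 2 matches, 226 and 161 bases before its start site. The match of GSTA4 lies 9 bases before its start site. That of MGST1 lies 30 bases after one of its 3 start sites, and the windows of the other 2 start sites have no such letters. Of 35116 human promoter windows of this length, 13.3% hold the antioxidant core and 7.71% the AP-1 element, which 1 member (GSTP1) holds. The core of the xenobiotic response element, GCGTG, was in the windows of 4 members (GSTM3, GSTM4, GSTZ1 and MGST3) and in 36.5% of all windows. These matches describe letters and are not evidence of binding.

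Levels of different genes were compared per length, as CPM per kb of the principal transcript. GSTP1, the pi-class enzyme, had the highest level of the 10, at 283 ± 21.2 CPM per kb in vehicle (SD, n = 3). GSTK1, the kappa-class enzyme of mitochondria and peroxisomes, followed at 91.8 ± 8.23. MGST3, a microsomal enzyme with peroxidase activity, had 79.2 ± 5.37, and GSTO1, the omega-class enzyme that also reduces dehydroascorbate, had 61.0 ± 5.44. GSTA4, an alpha-class enzyme with high activity on the lipid aldehyde 4-hydroxynonenal, stood at 33.4 ± 5.58 CPM per kb and MGST1 at 28.9 ± 18.1. The lowest means were those of GSTM4 (19.1 ± 0.93), GSTZ1 (13.7 ± 1.72), GSTM3 (11.2 ± 1.88) and MGST2 (7.73 ± 1.45). Within the vehicle libraries the ranges of GSTK1 and MGST3 overlapped, as did those of GSTZ1 and GSTM3, so these neighbours had no clear order. MGST1 ranged from 8.07 to 41.5 CPM per kb. It overlapped GSTA4, GSTM4, GSTZ1, GSTM3 and MGST2, so its place among them was not clear. Dividing by the length of all annotated exons instead kept GSTP1 first in vehicle. It moved GSTO1 to rank 2, GSTK1 to 3, GSTA4 to 4, MGST3 to 5, GSTM3 to 6 and MGST1 to 8. By this measure MGST2 came at rank 9 and GSTZ1 at rank 10, the lowest.

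**Figure D1:**
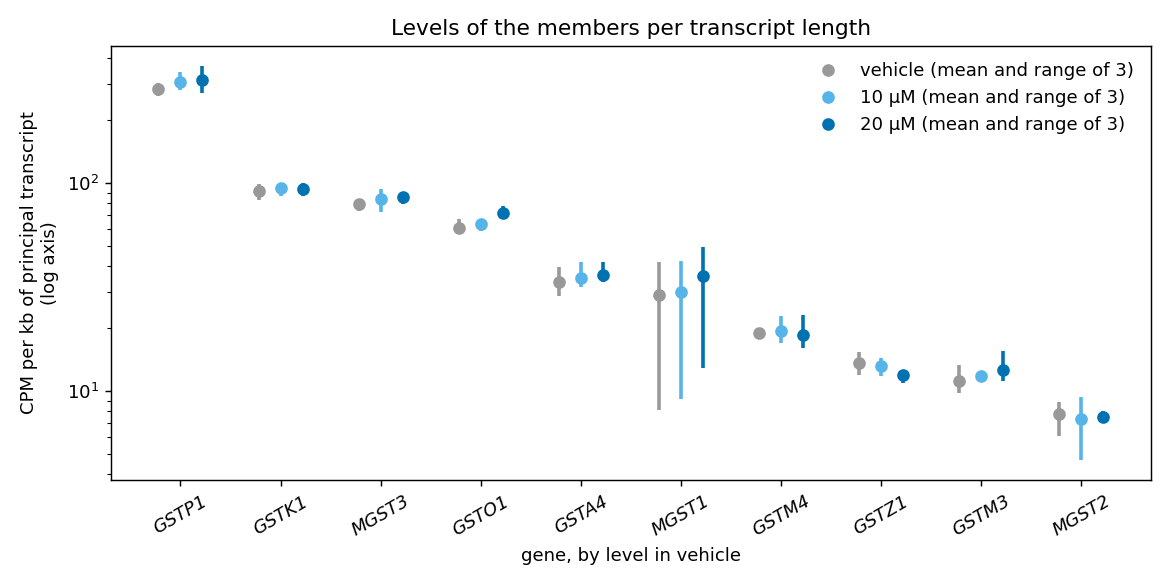
Levels of the 10 genes in CPM per kb of principal transcript (log axis), with the mean and range of 3 libraries at 0, 10 and 20 µM citrinin. GSTP1 lies highest at all 3 doses (vehicle mean 283), MGST2 lowest (vehicle mean 7.73), and MGST1 has the widest range on the log axis.

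The first comparison, 20 µM citrinin against vehicle, asked which of these genes the higher dose moved. MGST1, the microsomal enzyme of the endoplasmic reticulum and outer mitochondrial membrane, was the 1 member that rose. It had 7.90, 36.2 and 40.7 CPM in vehicle replicates 1, 2 and 3, then 9.01, 38.1 and 41.2 CPM at 10 µM and 12.6, 44.5 and 48.2 CPM at 20 µM. At each dose replicate 1 was far below the other libraries, so the dose groups overlap, but within each replicate number the order of the doses was the same. The ratio of 20 µM to vehicle was 1.60, 1.23 and 1.18 in replicates 1, 2 and 3. With the replicate block the log2 fold change was 0.35 ± 0.08 SE (95% interval 0.18 to 0.52, edgeR adjusted p = 0.0182), a 1.28-fold higher level. Without the block the log2 fold change was 0.31 ± 0.78 SE (edgeR adjusted p = 0.999997). In bulk RNA, a change in the share of cells of a type and a change in RNA per cell cannot be told apart.

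The call on MGST1 was lost with the block under limma-voom (adjusted p = 0.163). The call was also lost on leaving out vehicle replicate 1 (0.130), vehicle replicate 2 (0.175), vehicle replicate 3 (0.0785), 20 µM replicate 2 (0.0517), 20 µM replicate 3 (0.0704) or all 3 libraries of replicate 3 (0.244). It held with DESeq2 (adjusted p = 0.0284), and the log2 fold change stayed between 0.27 and 0.45 in all these blocked fits that left libraries out.

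**Figure D2:**
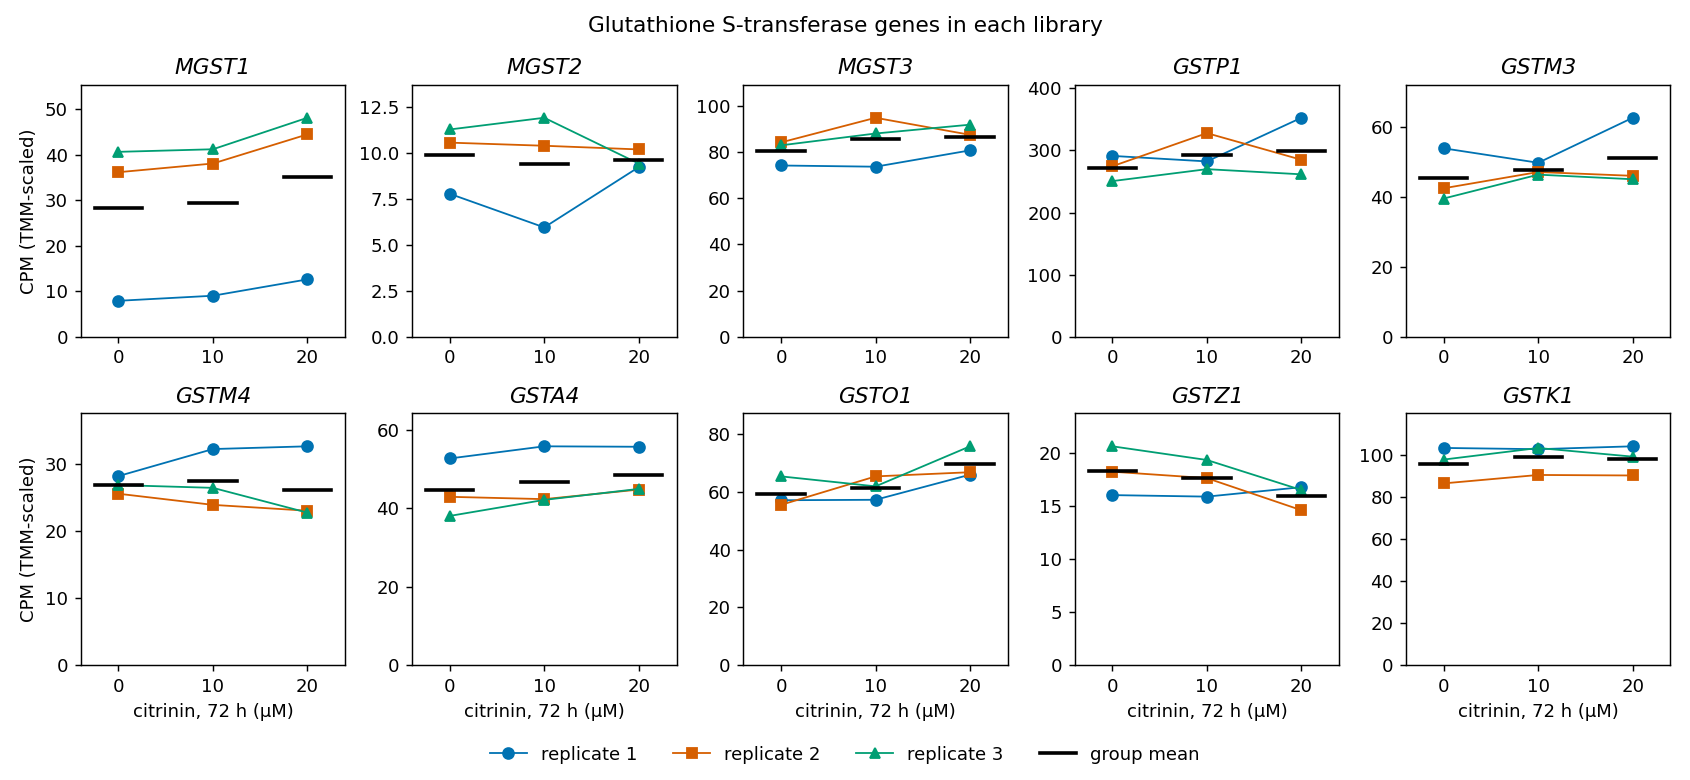
CPM (TMM-scaled) of the 10 genes in each library at 0, 10 and 20 µM citrinin, with points of a replicate number joined and a bar at each group mean. MGST1 in replicate 1 runs from 7.90 to 12.6 CPM, far under replicates 2 and 3, and GSTO1 at 20 µM (65.9 to 75.7 CPM) lies above both other doses.

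GSTO1 had 57.1, 55.5 and 65.3 CPM in vehicle, 57.2, 65.3 and 61.9 CPM at 10 µM, and 65.9, 66.8 and 75.7 CPM at 20 µM. The 20 µM libraries did not overlap with those of vehicle, and GSTO1 was the 1 member of which this holds. The ranges of 6.76% of all genes tested did not overlap either. Its log2 fold change was 0.23 ± 0.06 SE (95% interval 0.10 to 0.36), with an edgeR adjusted p of 0.0518 in the blocked fit, just outside the threshold, so it is not counted as changed. With the block it passed with DESeq2 size factors (0.0498) and with no filter on low counts (0.0211), but not with DESeq2 (0.129) or limma-voom (0.0563). It passed in 2 of 9 blocked fits that left out a single library, those without 10 µM replicate 1 (0.0329) or 10 µM replicate 2 (0.0100), with adjusted p of up to 0.495, and in 0 of 3 that left out a replicate number.

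Of the other microsomal genes, MGST3 had 74.2, 84.2 and 82.9 CPM in vehicle, 73.6, 94.8 and 88.0 CPM at 10 µM, and 80.7, 87.5 and 91.9 CPM at 20 µM. The groups overlap, and its log2 fold change at 20 µM was 0.11 ± 0.06 SE (edgeR adjusted p = 0.422). MGST2, which in human cells can make leukotriene C4, had 7.78, 10.6 and 11.3 CPM in vehicle, 5.95, 10.4 and 11.9 CPM at 10 µM and 9.23, 10.2 and 9.43 CPM at 20 µM. Replicate 1 was higher at 20 µM than in vehicle and replicates 2 and 3 were lower, and the log2 fold change was -0.03 ± 0.14 SE (95% interval -0.32 to 0.27).

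GSTP1, the member with the most reads (4265 to 5844 in a library), had 291, 275 and 251 CPM in vehicle, 282, 328 and 270 CPM at 10 µM, and 353, 285 and 262 CPM at 20 µM. Replicate 1 at 20 µM was the highest of the 9 libraries, with 1.21 times the vehicle library of its number, against 1.04 times in the other 2 pairs. Its log2 fold change was 0.13 ± 0.07 SE (95% interval -0.02 to 0.29, edgeR adjusted p = 0.474). The interval of the fold reaches from 0.984 to 1.22. In the blocked fit the log2 fold change was 0.017 without 20 µM replicate 1 and 0.21 without 20 µM replicate 2, the ends of its range over the 9 libraries left out singly.

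Of the mu-class genes, GSTM3, best known from brain and testis, had 54.0, 42.5 and 39.6 CPM in vehicle, 49.9, 47.2 and 46.4 CPM at 10 µM, and 62.7, 46.1 and 45.1 CPM at 20 µM. It was higher at 20 µM in 3 of 3 pairs, with a log2 fold change of 0.17 ± 0.07 SE (edgeR adjusted p = 0.269). GSTM4 had 28.3, 25.6 and 26.9 CPM in vehicle, 32.3, 24.0 and 26.5 CPM at 10 µM, and 32.7, 23.1 and 22.8 CPM at 20 µM. It was higher in replicate 1 and lower in replicates 2 and 3, and its log2 fold change was -0.05 ± 0.09 SE. GSTA4 had 52.6, 42.9 and 38.0 CPM in vehicle, 55.7, 42.3 and 42.1 CPM at 10 µM and 55.6, 44.7 and 44.9 CPM at 20 µM, with a log2 fold change of 0.12 ± 0.06 SE (edgeR adjusted p = 0.425).

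GSTK1 had 103, 86.5 and 97.8 CPM in vehicle, 103, 90.5 and 103 CPM at 10 µM, and 104, 90.2 and 99.2 CPM at 20 µM. Its ratios of 20 µM to vehicle were 1.01, 1.04 and 1.01, and the 95% interval of its log2 fold change, -0.07 to 0.13, is the narrowest of the 10. GSTZ1, the zeta-class enzyme that acts as maleylacetoacetate isomerase in tyrosine breakdown, was the member with the lowest fold change. It had 16.0, 18.2 and 20.6 CPM in vehicle, 15.9, 17.6 and 19.3 CPM at 10 µM and 16.8, 14.6 and 16.5 CPM at 20 µM. Its ratios of 20 µM to vehicle were 1.05, 0.801 and 0.800, and its log2 fold change was -0.19 ± 0.10 SE (95% interval -0.40 to 0.01, edgeR adjusted p = 0.423).

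Taken as a list, 1 of the 10 members rose, 0 fell and 9 did not pass at 20 µM, where 2.21% of all genes tested passed, 0.848% higher and 1.36% lower. The median log2 fold change of the 10 was 0.12, against -0.00 over all genes tested, and 7 of the 10 were positive, against 49.4% of all genes. Without the block 0 of 10 passed, 1 of them (GSTO1) with an unadjusted p below 0.05, and DESeq2 and limma-voom without the block also called 0. The 7 with a positive change were higher at 20 µM in 3 of 3 pairs. Only MGST1 among them passed, and the share of all genes tested that were higher in 3 of 3 pairs was not computed. The summed level of the 10 genes was 740 ± 45.7 CPM at 20 µM and 681 ± 10.0 CPM in vehicle (SD, n = 3 each), and GSTP1 alone made up 300 ± 47.3 and 272 ± 20.4 CPM of it.

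**Figure D3:**
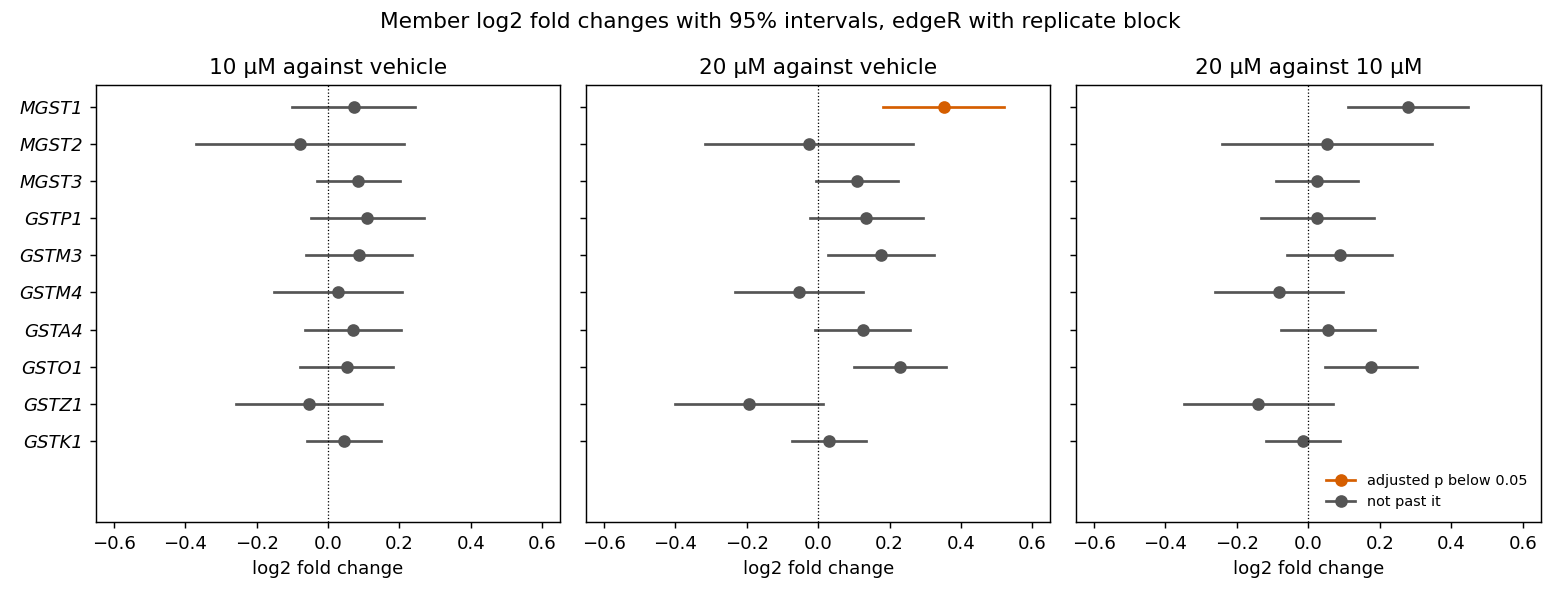
Log2 fold changes of the 10 genes in the 3 comparisons from the edgeR fit with the replicate block, with 95% intervals. MGST1 at 20 µM against vehicle (0.35) is the 1 value past the adjusted threshold, and GSTO1 (0.23) comes next.

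At 10 µM against vehicle 0 of the 10 members passed with the block, where 0.0337% of all genes tested passed. No member had an unadjusted p below 0.05 in edgeR, DESeq2 or limma-voom, with or without the block (smallest edgeR adjusted p with the block 0.999744). The log2 fold changes ran from -0.08 ± 0.14 SE for MGST2 to 0.11 ± 0.07 SE for GSTP1. MGST1 was at 0.07 ± 0.08 (95% interval -0.10 to 0.24) and GSTO1 at 0.05 ± 0.06 (-0.08 to 0.18). The median was 0.06 and 8 of 10 were positive, against 49.1% of all genes tested. Pairs of GSTO1 went both ways, with ratios of 1.003, 1.18 and 0.947, while MGST1 was higher in 3 of 3 pairs, with ratios of 1.14, 1.05 and 1.01. The summed level was 718 ± 37.2 CPM at 10 µM, against 681 ± 10.0 CPM in vehicle.

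At 20 µM against 10 µM 0 of the 10 members passed with the block, where 0.444% of all genes tested passed, 0.18% higher and 0.264% lower. With the block, the same 2 members had an unadjusted p below 0.05 in edgeR, DESeq2 and limma-voom, and without it 0 did in any of these tools. These were MGST1, with a log2 fold change of 0.28 ± 0.08 SE (95% interval 0.11 to 0.45, edgeR adjusted p = 0.167), and GSTO1, with 0.18 ± 0.06 SE (0.05 to 0.31, edgeR adjusted p = 0.328). GSTO1 was again the 1 member whose dose groups did not overlap, as did 4.87% of all genes tested. Both genes were higher at 20 µM in 3 of 3 pairs. The other 8 members lay between -0.14 ± 0.10 SE for GSTZ1 and 0.09 ± 0.07 SE for GSTM3. Both comparisons with 20 µM share the 20 µM libraries, and those against vehicle share the vehicle libraries. Leaving out 10 µM replicate 2 gave GSTO1 an adjusted p of 0.0352 with the block.

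Most of these genes differed between replicate numbers. The contrast of replicate 1 with the mean of replicates 2 and 3, over all 3 doses, was added after the data were seen and comes from the blocked edgeR fit. Its SE, intervals and p-values measure the spread of libraries within replicate numbers. They do not measure the spread between numbers, of which 1 is set against 2. In it 7 of the 10 members differed, 4 higher and 3 lower in replicate 1, where 41.5% of all genes tested differed, 20.2% higher and 21.3% lower. All 3 microsomal genes were lower in replicate 1. MGST1 averaged 9.84 ± 2.46 CPM in replicate 1 (n = 3) and 41.5 ± 4.34 CPM in replicates 2 and 3 (SD, n = 6), a log2 difference of -2.08 ± 0.08 SE (edgeR adjusted p = 3.54e-17). The log2 difference of MGST2 was -0.48 ± 0.13 (edgeR adjusted p = 0.00337) and that of MGST3 -0.21 ± 0.05 (0.00104).

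The mu and alpha genes were higher in replicate 1. The log2 difference was 0.36 ± 0.06 for GSTA4 (edgeR adjusted p = 5.54e-06), 0.33 ± 0.07 for GSTM4 (0.000827) and 0.32 ± 0.06 for GSTM3 (0.000139). GSTK1 was higher by 0.13 ± 0.04 (edgeR adjusted p = 0.0173), a call lost without vehicle replicate 1 or 20 µM replicate 3. It averaged 103 CPM in replicate 1, 89.0 CPM in replicate 2 and 100 CPM in replicate 3. The libraries of replicates 1 and 3 overlapped, so the difference lay mostly with replicate 2. The call on MGST2 was lost without 10 µM replicate 1, and those on the other 5 held without any single library. GSTP1 (0.15 ± 0.06, adjusted p = 0.0712), GSTO1 (-0.11 ± 0.05, 0.102) and GSTZ1 (-0.13 ± 0.09, 0.257) did not pass in edgeR. GSTP1 passed with no filter on low counts (0.00194) and without 10 µM replicate 1 (0.000122) or 10 µM replicate 2 (0.000281), and its log2 difference was 0.038 without 20 µM replicate 1. GSTZ1 passed without 20 µM replicate 1 (0.0466). The libraries of replicate 1 did not overlap with those of replicates 2 and 3 for 6 of the 10 members, and for 31.0% of all genes tested. What sets replicate 1 apart was not tested.

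**Figure D4:**
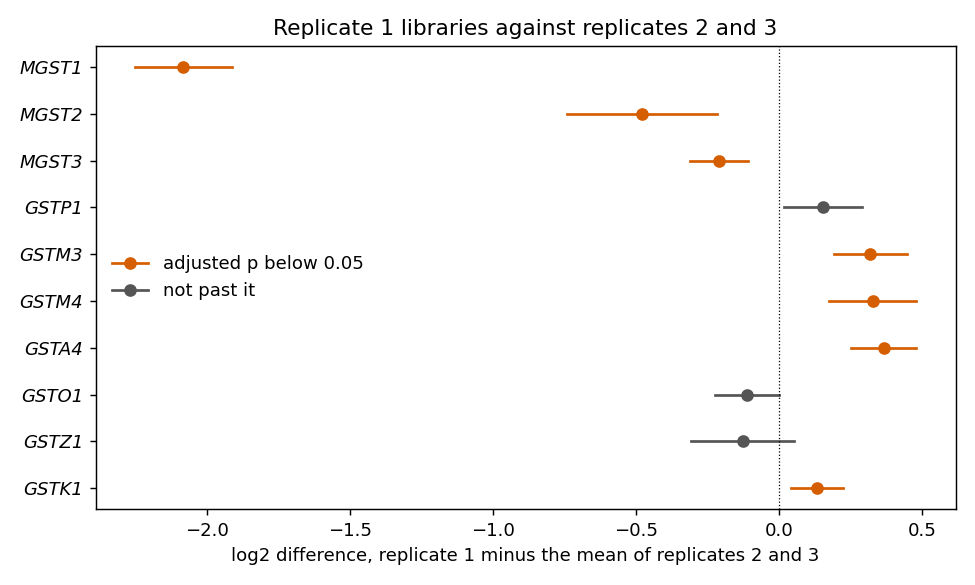
Log2 difference of replicate 1 from the mean of replicates 2 and 3 for the 10 genes, over all doses, with 95% intervals, from the edgeR fit with the replicate block. MGST1 stands at -2.08, MGST2 and MGST3 are lower in replicate 1, and GSTA4, GSTM4, GSTM3 and GSTK1 are higher.

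Among genes averaging at least 10 CPM, those most like MGST1 were sought by Pearson's r of log2 CPM over the 9 libraries, after the mean of each replicate number was subtracted. The libraries share their replicate structure and doses, so r is a description. Of 10497 genes compared, the 5 highest were SEC61B, a subunit of the endoplasmic reticulum translocon (r = 0.976), ATP6V0D1, a subunit of the vacuolar proton pump (0.974), AKR1B1, an aldose reductase (0.969), UTP14A, a ribosome biogenesis factor (0.969), and ADAM23, a membrane protein of the disintegrin family (0.968). Their log2 fold changes at 20 µM were 0.12 to 0.30 with the block. Since they were chosen for following MGST1, a higher level at 20 µM was part of the choice and is not tested here. Of the other members GSTO1 was most like MGST1 (r = 0.787) and GSTZ1 least (r = -0.363).

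Of 25 further genes of the transferase and chloride channel families that resemble these enzymes, 24 were in the tables and 12 passed the filter on low counts. GSTT1 was not analysed here. The 12 others had means of at most 0.426 CPM. They include the alpha-class genes GSTA1 and GSTA2, main transferases of liver, and GSTA3, with 35, 10 and 8 reads in the 9 libraries together. GSTM1, GSTA5, CLIC5 and EEF1G were listed at 0 reads in every library. EEF1G is a translation factor of all cells, so a listed 0 does not by itself show a missing transcript.

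At 20 µM against vehicle 1 of the 12 rose and 0 fell with the block, where 2.21% of all genes tested passed. This was CLIC1, a glutathione transferase-like protein that can insert in membranes as a chloride channel. CLIC1 had 131, 154 and 180 CPM in vehicle, 133, 164 and 176 CPM at 10 µM and 160, 177 and 197 CPM at 20 µM. The dose groups overlap, and the log2 fold change was 0.21 ± 0.05 SE (edgeR adjusted p = 0.0162). The call held in 4 of 9 blocked fits that left out a single library. It was lost without each of the 3 vehicle libraries, 10 µM replicate 3 or 20 µM replicate 3, with adjusted p of up to 0.230. With a replicate number left out it held in 1 of 3 fits and was lost without replicate 1 (0.0961) or replicate 3 (0.284). Without the block 0 of 12 passed in edgeR, DESeq2 or limma-voom, and 0 had an unadjusted p below 0.05. Other family genes of at least 10 CPM showed small values. CLIC4 averaged 306 ± 44.7 CPM at 20 µM and 306 ± 39.4 CPM in vehicle, and GDAP1, a mitochondrial outer membrane protein linked to Charcot-Marie-Tooth neuropathy, 93.5 ± 19.8 and 99.2 ± 22.98 CPM. GSTCD averaged 29.8 ± 3.14 CPM at 20 µM and 29.98 ± 2.67 CPM in vehicle, and GSTM2 24.0 ± 6.38 and 22.3 ± 5.53 CPM (SD, n = 3 each). GSTM2, like its neighbour GSTM4, was higher in replicate 1, by a log2 difference of 0.64 ± 0.07 SE (edgeR adjusted p = 3.97e-08). At 10 µM against vehicle and at 20 µM against 10 µM 0 of the 12 passed with the block, with 0 and 2 at an unadjusted p below 0.05.

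The genes that supply glutathione and carry conjugates away were described from a list of 44, of which 32 were tested. At 20 µM against vehicle 4 rose and 0 fell, where 2.21% of all genes tested passed and 0.848% rose. The median log2 fold change over the 32 was 0.07. SLC7A11, the importer of cystine for glutathione synthesis, rose the most, with 16.1, 33.8 and 22.8 CPM at 20 µM and 7.49, 8.52 and 7.82 CPM in vehicle. Its log2 fold change was 1.58 ± 0.15 SE (edgeR adjusted p = 2.20e-06). GCLM, the modifier subunit of the rate-limiting enzyme of glutathione synthesis, rose by 0.93 ± 0.07 (edgeR adjusted p = 5.69e-10). GSR, the reductase that returns oxidised glutathione to its reduced form, had 105, 115 and 110 CPM at 20 µM and 77.3, 73.8 and 83.6 CPM in vehicle (0.49 ± 0.06, edgeR adjusted p = 3.00e-06). ABCC3, an exporter of conjugates, rose by 0.53 ± 0.05 (edgeR adjusted p = 3.39e-08), while the exporter ABCC1 had a log2 fold change of 0.04 and GCLC, the catalytic partner of GCLM, 0.11 (edgeR adjusted p = 0.463). All 4 calls held in each of 9 blocked fits that left out a single library and in each of 3 that left out a replicate number. Without the block edgeR called 0 of the 32, 3 of them with an unadjusted p below 0.05 (smallest adjusted p = 0.163), limma-voom called 0 and DESeq2 called 3.

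The smallest of these 4 log2 fold changes, 0.49 for GSR, is larger than the 0.35 of MGST1, the largest among the transferases. These 4 are named because they passed. The median over all 32 pathway genes was 0.07, against 0.12 over the 10 transferases. The difference between genes was not tested. At 10 µM 1 of the 32 rose with the block, GCLM (log2 fold change 0.37, edgeR adjusted p = 0.0323), where 0.0337% of all genes tested passed. This call held in 4 of the 9 blocked fits that left out a single library and in 1 of 3 that left out a replicate number (lost without replicate 2 or replicate 3). With single libraries it was lost without each of the 3 vehicle libraries, 10 µM replicate 3 or 20 µM replicate 3. Without the block edgeR called 0 of the 32, 1 of them with an unadjusted p below 0.05. At 20 µM against 10 µM the same 4 genes as at 20 µM against vehicle rose with the block, where 0.444% of all genes tested passed and 0.18% rose. The call on GSR held in 3 of 9 such fits and was lost without vehicle replicates 1 or 3, 10 µM replicates 1 or 3, or 20 µM replicates 2 or 3. All 4 were lost without the 3 libraries of replicate 3. As a reference outside both lists, the NRF2 target NQO1 averaged 179.6 ± 18.9 CPM at 20 µM and 91.0 ± 5.13 CPM in vehicle (SD, n = 3 each). Of 4 such reference genes, NQO1, TXNRD1 and OSGIN1 rose at 20 µM with the block, where 0.848% of all genes tested rose. SRXN1, at about 1 CPM, did not pass (edgeR adjusted p = 0.251). Without the block 0 of the 4 passed in edgeR.

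**Figure D5:**
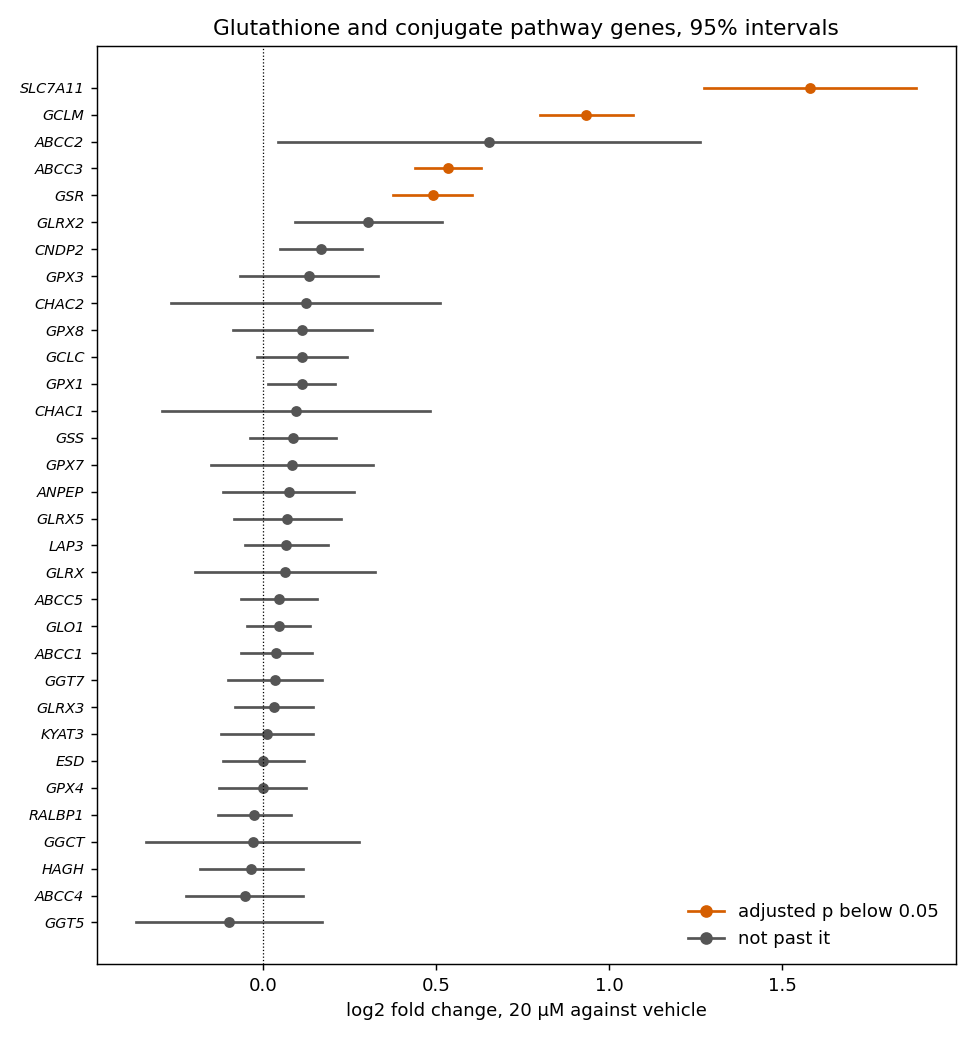
Log2 fold changes at 20 µM against vehicle of the 32 tested genes of glutathione supply and conjugate handling, edgeR with the replicate block, with 95% intervals. SLC7A11 (1.58), GCLM (0.93), ABCC3 (0.53) and GSR (0.49) are past the adjusted threshold.

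Some markers of cell state passed at 20 µM beside these genes. All 12 sympathetic neuroblast markers were detected in every library, with sums of 2636 to 3320 CPM at 20 µM and 3229 to 4047 CPM in vehicle, and 8 of 12 fell at 20 µM with the block while 0 rose, where 1.36% of all genes tested fell and 0.848% rose. Of 12 mesenchymal markers 3 rose (CD44, VIM and YAP1) and 0 fell. Only 5 of the 12 log2 fold changes were positive, against 49.4% of all genes tested, and the median was -0.02. The sums of the 12 were 5222 to 7190 CPM at 20 µM and 4714 to 6800 CPM in vehicle. At 10 µM against vehicle 0 of 12 neuroblast and 0 of 12 mesenchymal markers passed with the block. In replicate 1 against replicates 2 and 3, 7 mesenchymal markers were higher and 2 lower. Of all genes tested 20.2% were higher and 21.3% lower there. The mesenchymal sums were 6330 to 6575 CPM in replicate 1, 4714 to 5222 CPM in replicate 2 and 6800 to 7190 CPM in replicate 3. Neuroblast markers split 6 higher and 6 lower in that contrast. The part of these states in the values of MGST1 and the other transferases was not tested. Glial markers were near 0, with CDH19 at 0 reads, FOXD3 at 1 read in all, SOX10 at no more than 0.468 CPM, and sums over 8 markers of 9.16 to 10.0 CPM at 20 µM and 6.55 to 10.0 CPM in vehicle. Hepatocyte markers, checked because liver is rich in transferases, summed to 5.97 to 9.43 CPM at 20 µM and 8.60 to 9.54 CPM in vehicle. Of these 5 SERPINA1 held 4.45 to 9.43 CPM, and ALB, APOA1, TTR and FGB did not exceed 1.21 CPM in any library.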

How the data were processed

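Gene expression was measured by RNA-seq in 9 libraries, 3 at each dose. Per the submitters' processing notes, FastQC, cutadapt, STAR, edgeR and GRCh38 were used. Tool versions and the annotation release: not given in the sources used here. Raw counts per gene, as the authors deposited them for each library, cover both strands together and each strand alone. The joint count was used, as the strands held about equal reads (ratio 1.007 to 1.020). Reads not assigned to 1 gene were left out, and 76.4% to 78.0% were assigned.

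CPM were computed with TMM factors (0.989 to 1.013). Genes were filtered with edgeR's filterByExpr, leaving 17806 of 36838 with a read. Tests used edgeR 4.0.16 (quasi-likelihood, robust, all 9 libraries, R 4.3.3), with limma 3.58.1 (voom) and DESeq2 1.42.0 as alternatives. Fold changes and intervals are edgeR's, and intervals cover 95%. The replicate number in the titles was entered as a block in a further fit. All 9 same-numbered pairs of libraries deviated together from their group means (r = 0.457 to 0.685, limit 0.1), and different numbers had r of -0.545 to 0.139, so the numbers were taken to pair the samples. The common biological coefficient of variation was 0.195 without and 0.0552 with the block, which left 6 and 4 residual degrees of freedom.

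The members, gene lists and naming rule were chosen with earlier results of these data known. All 10 members are named, as are genes of the further family and pathway lists that passed at 20 µM with the block, family genes of at least 10 CPM and the 5 genes most like MGST1. Symbols matched 61369 of 61487 identifiers, and 119 of 120 listed genes. A further gene of the pathway list is not reported here. Scripts were tested on simulated counts.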

Additional observations from a re-analysis of the deposited data

How the results depend on the processing

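With the replicate block the count of all genes called was 393 at 20 µM against vehicle, 6 at 10 µM against vehicle and 79 between the doses, against 0 in each without it. Without the block, DESeq2 called 11 genes at 20 µM and a fit with no filter on low counts 6. Blocked fits with DESeq2, limma-voom, DESeq2 size factors and no filter called 266, 381, 399 and 560 genes at 20 µM, 6, 7, 6 and 23 at 10 µM, and 68, 77, 79 and 188 between the doses.

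Of the 10 transferases, 1 was called at 20 µM with the block and with blocked DESeq2, and 2 with blocked DESeq2 size factors or no filter. Of the further family genes 1 was called in each blocked fit. Of the pathway genes 4 were called at 20 µM in each blocked fit, 3 by DESeq2 and 1 with no filter, both without the block. At 10 µM it was 1 in each blocked fit but that without a filter, which called 3, and between the doses 4 in each.

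Leaving out a library or a replicate number, with and without the block, gave 0 to 729 genes called at 20 µM, 0 to 16 at 10 µM and 0 to 301 between the doses. It gave 0 to 2, 0 and 0 to 1 transferases, 0 to 1, 0 and 0 to 1 further family genes, and 0 to 4, 0 to 2 and 0 to 5 pathway genes. For replicate 1 against replicates 2 and 3, 5774 to 7824 genes and 6 to 8 transferases were called. GSTK1 lost its call there with blocked DESeq2 (log2 difference 0.13, DESeq2 adjusted p = 0.0513).

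Several members changed sign when libraries were left out, and the ranges given here pool fits with and without the block. With the block, GSTK1 and MGST1 kept their sign at 20 µM. So did GSTM3, GSTA4, GSTK1, GSTZ1 and MGST1 at 10 µM, and GSTM4, GSTA4 and MGST1 between the doses. At 20 µM the log2 fold change ran from -0.23 to 0.056 for GSTM4, -0.040 to 0.085 for GSTK1, -0.13 to 0.71 for MGST1 and -0.21 to 0.14 for MGST2. At 10 µM it ran from -0.013 to 0.22 for GSTM3, -0.094 to 0.12 for GSTM4, -0.078 to 0.21 for GSTA4, -0.026 to 0.10 for GSTK1, -0.039 to 0.13 for GSTO1, -0.14 to 0.041 for GSTZ1, -0.38 to 0.49 for MGST1 and -0.28 to 0.18 for MGST2. Between the doses it ran from -0.13 to 0.15 for GSTP1, -0.069 to 0.18 for GSTM3, -0.27 to 0.052 for GSTM4, -0.061 to 0.20 for GSTA4, -0.075 to 0.040 for GSTK1, -0.18 to 0.65 for MGST1, -0.22 to 0.28 for MGST2 and -0.078 to 0.10 for MGST3. No change of tool, scaling or filter turned a member's direction. The other 6 members (GSTP1, GSTM3, GSTA4, GSTO1, GSTZ1 and MGST3) kept theirs at 20 µM in every setting. The cause of these shifts was not tested. The lowest count of a member in a library, 103 reads of MGST2, limits its precision.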
